A study of Mus musculus with 7 samples.

Results

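The mitosis and spindle genes described here are 50 genes whose products condense chromosomes, build and pull the spindle, check its attachment to the chromosomes and split the cell. They were listed by name for their function, with earlier results of these data known, and kept where at least 10 reads were counted in 3 or more libraries. All 50 met that rule, and all 50 were among the 15448 genes with enough reads to be tested. Messenger RNA was measured in macrophages sorted by flow cytometry from gliomas grown in the brains of C57BL/6 mice. The tumours arose from 100000 injected cells of QPP7, a single glioma line that the series calls isogenic, carrying a hairpin RNA against Chi3l1 (shChi3l1, 3 libraries) or the control hairpin (shSC, 4 libraries). Chi3l1 encodes a secreted chitinase-like protein. The hairpin sat in the tumour cells and the sorted macrophages did not carry it, so both groups are host cells without a hairpin, from tumours that differ in it. The sources used here state neither the age of the mice, the time after injection nor the antibodies of the sort. The comparison asks whether macrophages from the 2 kinds of tumour differ in their transcripts for cell division.

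Mitosis genes are switched on together late in the cell cycle. CDK1 with cyclins A and B starts mitosis, Aurora and Polo-like kinases assemble the spindle, kinetochore proteins bind chromosomes to its microtubules, and the spindle checkpoint holds back the anaphase-promoting complex until every chromosome is attached. Macrophages in tissue are mostly not dividing, and transcripts of these genes in a bulk sample come mainly from the fraction of cells in cycle. In such a sample fewer dividing cells and less RNA of these genes per cell cannot be told apart.

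Reads assigned to genes ranged from 19169129 (shSC 4) to 36502664 (shChi3l1 2) per library. Whether the libraries of a group came from different mice is not stated, and the tests therefore measure the spread between libraries, which may in part be technical. All 12 macrophage markers were tested and none was at 0 reads in any library, and their summed level was 43348 to 60287 CPM in shChi3l1 and 29856 to 43162 in shSC. All 12 were higher in shChi3l1 (median log2 fold change 0.32), with none past the adjusted threshold in edgeR, and without shSC 4 10 of the 12 were. Lyz2, which encodes lysozyme and was the most abundant, had 0.86 ± 0.43 (SE). CPM is the number of reads of a gene relative to the TMM-scaled total of its library, TMM being a scaling that evens out differences in library make-up. Chi3l1 itself had 7 to 31 reads in a library (0.285 to 1.19 CPM in shChi3l1 and 0.774 to 0.819 in shSC), and since the hairpin acts in the tumour cells this checks the labels only indirectly. Library shSC 4 stood apart: the 14 tested tumour and glial markers of 17 listed summed to 388 CPM there, against 45.4 to 78.8 in the other shSC libraries and 14.9 to 113 in shChi3l1. Egfr, one of those markers, was at 0 reads in shSC 1, shSC 3 and shChi3l1 3, where Olig2 and Ncan were at 0 as well. Results that rest on shSC 4 are given with and without it.

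Most of the 50 genes were lower in the libraries from shChi3l1 tumours, although no single gene passed the test. Part of the difference rested on shSC 4. The 50 genes summed to 852, 626 and 559 CPM in shChi3l1 replicates 1, 2 and 3, a mean of 679 ± 154 (SD, n = 3). They summed to 1135, 746, 753 and 1205 CPM in shSC replicates 1 to 4, a mean of 960 ± 244 (SD, n = 4). The sums overlapped, because shChi3l1 1 lay above shSC 2 and shSC 3. Weighing the genes equally, each gene's log2 level was taken minus its mean over the 7 libraries. The mean of the 50 was then -0.54, -0.06 and -0.49 in shChi3l1 1 to 3. In shSC 1 to 4 it was -0.04, 0.23, -0.15 and 1.05, so shChi3l1 2 lay above shSC 3. The 50 genes were read in the same libraries, so the counts of genes below are not independent measurements of the hairpin.

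Gene by gene, 48 of the 50 had a negative log2 fold change (shChi3l1 against shSC), where 42.4% of all genes tested did. The median of the 50 was -0.72, from -1.65 (Cenpf) to 0.43 (Espl1), against 0.07 for all genes tested. Pttg1 and Espl1 were the exceptions. None of the 50 passed edgeR's quasi-likelihood test across all genes: every member had a Benjamini-Hochberg adjusted p of 0.9998, and 0% of the 15448 genes were called. DESeq2 called 1 gene, which was not a member, and limma voom called 0. At an unadjusted p under 0.05, edgeR had 229 genes in all. Among them 7 of the 50 members were lower (Ccna2, Ccnb2, Aurka, Aurkb, Ndc80, Knstrn and Nusap1) and 0 were higher, while 0.576% of all genes were lower and 0.906% higher at that level. DESeq2 had 9 members lower at that level, with 1.11% of all genes, and limma voom 10, with 1.56%. Without shSC 4 none of the 50 was under it in edgeR, and the share of all genes was not counted in that fit. With library totals in place of TMM scaling 49 of the 50 were lower, but so were 64.1% of all genes, and the medians were -0.94 and -0.13.

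**Figure D1:**
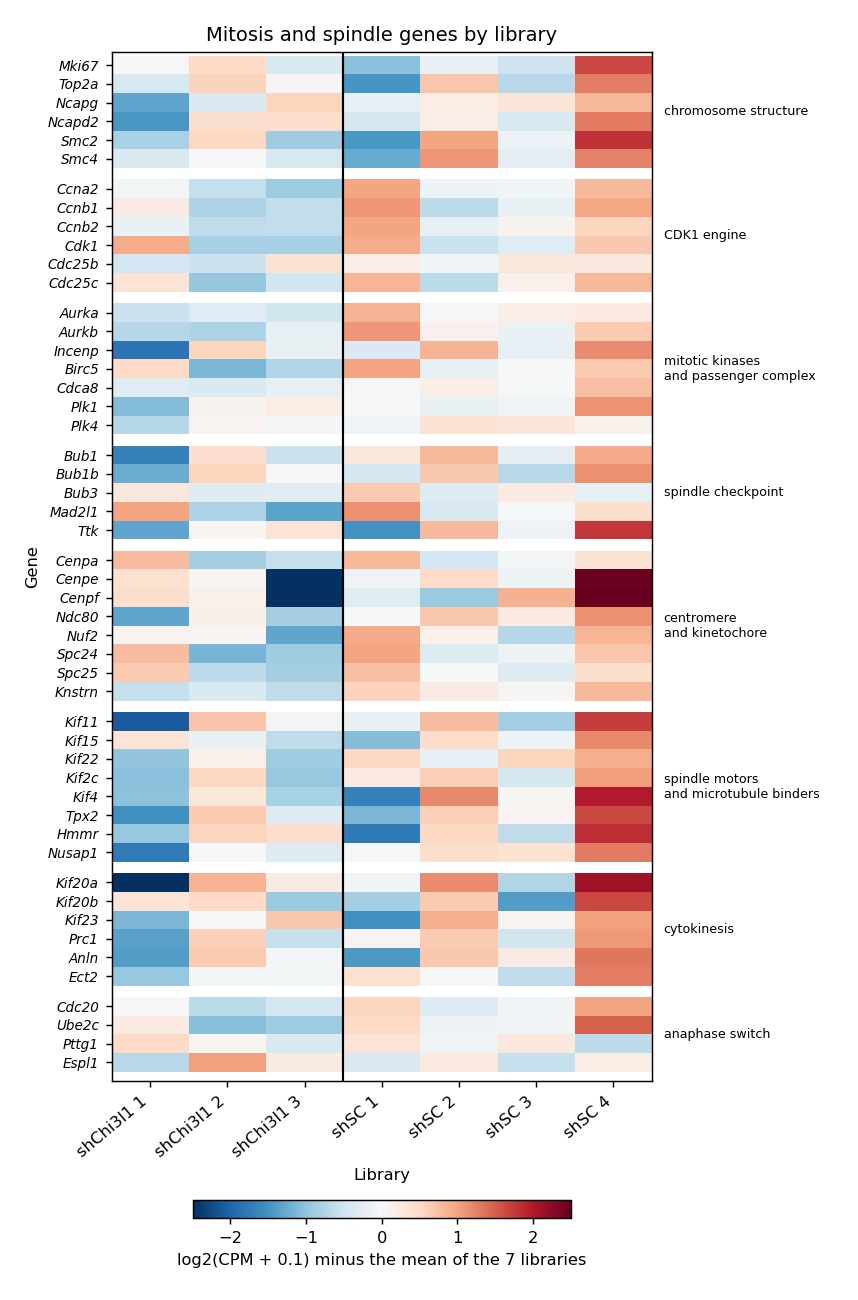
Level of each of the 50 genes (rows, grouped by role) in each of the 7 libraries (columns), as log2(CPM + 0.1) minus that gene's mean over the 7 libraries, with the colour scale limited at 2.5 in both directions. The shSC 4 column is red for most genes, the shSC 1 column is red for the CDK1, Aurora and small kinetochore genes but blue for Top2a, Smc2, Smc4 and Hmmr, and among the shChi3l1 columns 1 and 3 are blue for most genes and 2 is mixed.

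The heat map of the 50 genes shows where the difference lies. Library shSC 4 had the highest level of 32 of the 50 genes, where 14.1% of all genes tested were highest in it. Library shSC 1 was highest for 13 genes, among them Ccna2, Ccnb1, Ccnb2, Aurka, Aurkb and Birc5, where 14% of all genes were highest in it. The lowest level fell in shChi3l1 1 for 18 genes, in shChi3l1 2 for 12 and in shChi3l1 3 for 8, so 38 of the 50 had their minimum in a shChi3l1 library, where 50% of all genes did. The other 12 had it in shSC 1 (10 genes, among them Mki67, Top2a and Hmmr), shSC 3 (Kif20b) or shSC 4 (Pttg1).

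Without shSC 4, 43 of the 50 were still lower in shChi3l1, where 42.2% of all genes were, and the median moved from -0.72 to -0.35. The 7 genes that were then higher in shChi3l1 were Mki67, Top2a, Ncapd2, Kif15, Hmmr, Kif20b and Espl1, and Pttg1 joined the lower ones at -0.09. Library shSC 4 also held the highest tumour and glial marker sum. The part of those markers in the difference was not tested.

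The labels set replicates 1 to 3 of each group side by side as pairs but do not say what pairs them. Within these pairs 35, 41 and 34 of the 50 genes were lower in the shChi3l1 library, against 45.7%, 49.2% and 50.2% of all genes tested. The median log2 ratios of the 50 were -0.51, -0.32 and -0.39. In every one of the 3 pairs, 23 of the 50 were lower, where 10.8% of all genes were. With the replicate number as a block in the fit, which leaves out shSC 4, 42 of the 50 were lower with a median of -0.41, where 47.6% of all genes were lower. In that fit 0 members passed and 8 were lower at an unadjusted p under 0.05, where 0.856% of all genes were.

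Promoters of the members were read to see what these genes share besides their function. A late cell cycle promoter often carries a CHR element (cell cycle genes homology region), the letters TTTGAA, which the MuvB complex binds together with B-MYB or FOXM1, and CCAAT boxes, which the factor NF-Y binds. RefSeq windows (build GRCm38.p6, which is mm10) from 250 bases before to 50 after the start of transcription were matched for 42 of the 50 genes, 3 of which (Bub3, Ect2 and Prc1) have 2 overlapping windows and hold a word if either window does. TTTGAA, or its reverse complement TTCAAA, stood in the windows of 31 of the 42 (73.8%), against 20.2% of all 27025 genes with a window. CCAAT, or its reverse complement ATTGG, stood in 30 of the 42 (71.4%), against 41.1% of all genes. Both were found in 26 of the 42 (61.9%), against 7.97% of all genes, and 20 (47.6%) held at least 2 CCAAT matches, against 13.3%. No match to one word can also be a match to the other. A TTTGAA match lay within 60 bases of the start in 28 of the 42 (66.7%), against 6.36% of all genes. The following 120 bases before the start, 5′ to 3′ along the strand of the gene, are shown because they span the patterns found, with matches to either word in capitals. Cdk1 (chr10:69352913-69353032, minus strand), Cdc20 (chr4:118437344-118437463, minus strand) and Top2a (chr11:99024190-99024309, minus strand) hold both words and were lower in shChi3l1 over the 7 libraries, while Espl1 (chr15:102296173-102296292, plus strand) holds both and was higher. Ccnb2 (chr9:70421555-70421674, minus strand) and Aurka (chr2:172370571-172370690, minus strand) hold only CCAAT boxes in this stretch. Knstrn (chr2:118813883-118814002, plus strand) and Birc5 (chr11:117849117-117849236, plus strand) hold neither and were lower.
Cdk1: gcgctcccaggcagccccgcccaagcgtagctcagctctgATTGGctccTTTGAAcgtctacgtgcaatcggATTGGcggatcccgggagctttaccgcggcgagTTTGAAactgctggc
Cdc20: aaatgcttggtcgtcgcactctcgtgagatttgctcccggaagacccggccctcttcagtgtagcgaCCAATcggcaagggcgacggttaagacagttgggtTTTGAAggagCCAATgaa
Top2a: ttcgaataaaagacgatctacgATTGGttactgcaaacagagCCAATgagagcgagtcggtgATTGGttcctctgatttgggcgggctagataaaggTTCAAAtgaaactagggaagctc
Espl1: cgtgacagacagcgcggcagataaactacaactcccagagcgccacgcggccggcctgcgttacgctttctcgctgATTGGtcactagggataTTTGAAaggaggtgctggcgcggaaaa
Ccnb2: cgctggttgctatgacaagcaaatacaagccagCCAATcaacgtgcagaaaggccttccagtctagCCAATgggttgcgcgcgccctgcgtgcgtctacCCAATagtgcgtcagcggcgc
Aurka: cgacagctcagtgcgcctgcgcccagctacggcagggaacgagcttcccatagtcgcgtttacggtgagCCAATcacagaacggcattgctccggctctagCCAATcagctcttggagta
Knstrn: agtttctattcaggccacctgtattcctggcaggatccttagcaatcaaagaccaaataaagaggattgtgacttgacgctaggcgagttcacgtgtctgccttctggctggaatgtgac
Birc5: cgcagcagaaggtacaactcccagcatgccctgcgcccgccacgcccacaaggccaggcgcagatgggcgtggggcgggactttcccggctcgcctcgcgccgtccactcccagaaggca

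The spacing can be read in the printed stretches: in Cdk1 and Top2a a TTTGAA or TTCAAA match sits close to the start with CCAAT boxes upstream of it, while Cdc20 has a CCAAT box on either side of its TTTGAA. Counting 1 window per gene, the 41 TTTGAA matches had a median position of -15 bases from the start and the 68 CCAAT matches one of -72.5. Ccnb2 and Aurka also hold TTTGAA matches elsewhere in the 300-base window. Both words were absent from the windows of 7 genes: Birc5, Knstrn, Mad2l1, Nuf2, Nusap1, Plk4 and Pttg1. Of the 31 genes with TTTGAA 30 were lower in shChi3l1 (median log2 fold change -0.55). Of the 11 without it 10 were lower (median -0.73). Without shSC 4 these were 24 of 31 (median -0.30) and 11 of 11 (median -0.56), and the difference between the sets was not tested. A match describes the letters in the window and is not a measured binding site.

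**Figure D2:**
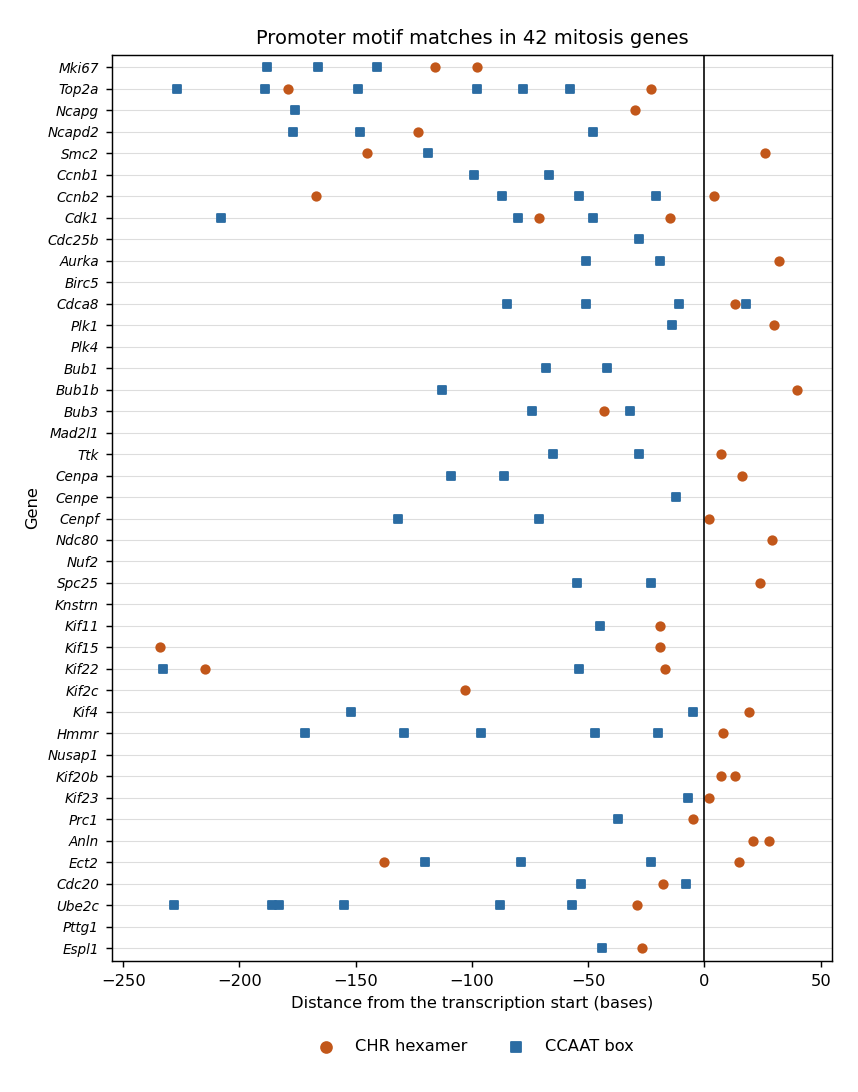
Position of every TTTGAA match (circles, "CHR hexamer") and CCAAT match (squares), on either strand, in 1 promoter window of each of the 42 genes with a RefSeq window, in bases from the start of transcription (vertical line at 0). Circles gather near the start, with a median of -15, and squares upstream of it, with a median of -72.5, and 7 rows are empty.

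CDK1 and the proteins that switch it on were lower as a group, and this held without shSC 4. All 6 genes of this group (Cdk1, Ccna2, Ccnb1, Ccnb2, Cdc25b and Cdc25c) had negative fold changes, with a median of -0.75, and of -0.56 without shSC 4. Ccna2, the cyclin that drives late S phase and entry into mitosis, stood at 22.3, 15.4 and 12.3 CPM in shChi3l1 1 to 3 and at 46.1, 21.3, 21.9 and 40.7 in shSC 1 to 4. Only shChi3l1 1 reached into the shSC range. The log2 fold change was -0.96 ± 0.41 (SE), 1.95-fold lower, and Exosc9 overlaps 12.5% of the exon bases. Ccnb2, a mitotic cyclin (chr9:70407692-70421547, with 3 CCAAT boxes in the printed promoter), stood at 19.8, 14.4 and 14.6 CPM against 44.5, 19.2, 23.7 and 32.8. The lowest shSC library was just under the highest shChi3l1 one, and the log2 fold change was -0.88 ± 0.38 (SE). Ccnb1, the other main mitotic cyclin, had -0.81 ± 0.51. Its high libraries were shSC 1 at 46.4 CPM and shSC 4 at 42.4, and the other shSC libraries (13.5 and 18.8) overlapped the shChi3l1 range of 12.6 to 25.1.

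Cdk1, the kinase itself, was less clear. It stood at 79.8, 23.5 and 23.5 CPM in shChi3l1 and at 79.6, 28.6, 34.0 and 66.6 in shSC. Its level in shChi3l1 1 matched that in shSC 1, the library of the same number, and the log2 fold change was -0.30 ± 0.56 (SE), or -0.16 without shSC 4. The phosphatases Cdc25b and Cdc25c, which remove the inhibitory phosphates from CDK1, had -0.31 ± 0.37 and -0.69 ± 0.56. The fewest-read member of the group was Cdc25c, at 1.40 to 5.14 CPM. The group as a whole summed to 157, 73.5 and 78.3 CPM in shChi3l1 and to 232, 92.9, 112 and 198 in shSC.

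The Aurora kinases, Polo-like kinases and chromosomal passenger proteins separated the hairpins most cleanly. The 7 genes summed to 104, 93.7 and 96.6 CPM in shChi3l1 and to 195, 133, 124 and 193 in shSC, a mean of 97.9 ± 5.06 (SD, n = 3) against 161 ± 38.2 (SD, n = 4). This was the only one of the 8 role groups whose sums did not overlap. All 7 were lower, with a median of -0.72, and all 7 were lower without shSC 4, with a median of -0.41.

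Of all 50 genes, 5 had every shChi3l1 library below every shSC library, where 1.25% of all genes tested did, and 3 of the 5 belong here. Aurkb, the kinase of the passenger complex that corrects faulty attachments (chr11:69045647-69051664), stood at 11.0, 10.5 and 15.5 CPM in shChi3l1 and 38.8, 19.8, 16.1 and 28.4 in shSC. The gap between the groups was narrow, from 15.5 to 16.1, and was set by pair 3. Its log2 fold change was -1.06 ± 0.40 (SE), 2.09-fold lower, and -1.01 without shSC 4. Aurka, the kinase of centrosomes and spindle poles (chr2:172356190-172370535), stood at 16.8, 19.6 and 17.4 CPM in shChi3l1 and 44.4, 24.4, 27.7 and 28.5 in shSC. The 3 shChi3l1 values lay close together, and the highest level was in shSC 1, not shSC 4. The log2 fold change of -0.80 ± 0.33 (SE) was -0.84 without shSC 4. Cdca8, which encodes borealin of the passenger complex (chr4:124918465-124939311), stood at 14.9, 14.1 and 15.7 CPM against 18.4, 20.6, 18.1 and 30.9. The range in shChi3l1 was narrow and the log2 fold change was -0.57 ± 0.33 (SE), or -0.36 without shSC 4.

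Birc5, which encodes survivin and tethers the passenger complex, stood at 48.5, 15.6 and 20.4 CPM in shChi3l1 and at 68.9, 29.5, 34.0 and 54.1 in shSC. It was lower in each of the 3 pairs, but shChi3l1 1 lay above shSC 2 and shSC 3, and the log2 fold change was -0.73 ± 0.49 (SE). Incenp, the scaffold of the complex, had -0.72 ± 0.61, and -0.41 without shSC 4, with levels from 2.85 CPM in shChi3l1 1 to 23.6 in shSC 4. Plk1, which drives entry into mitosis, had -0.48 ± 0.49 and -0.06 without shSC 4, where it stood at 17.6 CPM. Plk4, the kinase of centriole copying, had -0.38 ± 0.36, and was the one gene highest in shSC 2, at 12.5 CPM.

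**Figure D3:**
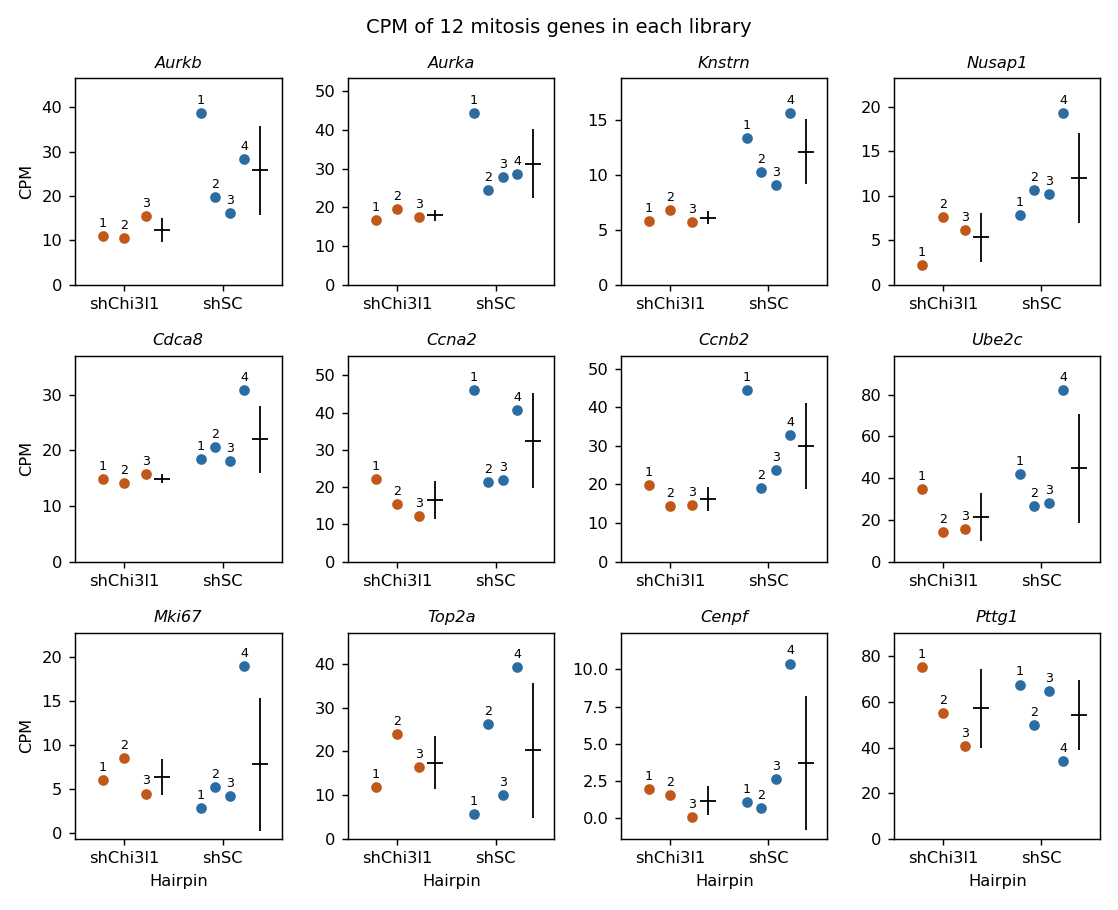
CPM of 12 of the genes in each library (points, labelled with the replicate number), with the mean and SD of each hairpin group beside them. Aurkb, Aurka, Knstrn, Nusap1 and Cdca8 have no overlap between the 3 shChi3l1 and the 4 shSC libraries, whereas in Mki67, Top2a and Cenpf shSC 4 is the highest point and the other libraries overlap, and Pttg1 overlaps throughout.

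Kinetochore and centromere genes were also lower with and without shSC 4. All 8 had negative fold changes, with a median of -0.85, and of -0.45 without shSC 4. Their sums were 163, 67.4 and 63.0 CPM in shChi3l1 against 186, 95.1, 101 and 174 in shSC. Knstrn, which encodes the small kinetochore-associated protein kinastrin (chr2:118814003-118853957), stood at 5.83, 6.83 and 5.69 CPM in shChi3l1 and at 13.4, 10.3, 9.14 and 15.7 in shSC. The groups did not overlap, and its mean was 6.12 ± 0.623 CPM (SD, n = 3) against 12.1 ± 2.98 (SD, n = 4). Knstrn had the smallest unadjusted p of the 50 genes, with a log2 fold change of -0.99 ± 0.36 (SE), which was -0.84 without shSC 4. Ndc80, the microtubule-binding core of the outer kinetochore, stood at 1.87, 5.32 and 2.64 CPM against 4.79, 7.76, 5.66 and 10.7, and only shChi3l1 2 reached above the lowest shSC library. Its log2 fold change was -1.14 ± 0.50 (SE).

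The partners of Ndc80 in the same complex were less clear: Nuf2 had -0.72 ± 0.55, Spc24 -0.58 ± 0.56 and Spc25 -0.38 ± 0.47, each lower in all 3 pairs. Cenpa, the histone H3 variant that marks centromeres, stood at 83.4, 26.7 and 32.1 CPM in shChi3l1 and at 85.7, 35.2, 46.4 and 62.6 in shSC. As for Cdk1, the 2 libraries numbered 1 were the highest of their groups and nearly equal, and the log2 fold change was -0.28 ± 0.48 (SE). Cenpe, a kinetochore motor, and Cenpf, a large kinetochore protein, had the most negative values of the 50, at -1.49 ± 1.02 and -1.65 ± 1.14. Both had their lowest level in shChi3l1 3, at 0.0813 CPM or 2 reads each, and their highest in shSC 4, at 9.16 and 10.4 CPM. Without shSC 4 they were -0.43 and -0.32, and without both of those libraries 0.12 and 0.22.

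The checkpoint genes were lower by less. All 5 had negative fold changes, with a median of -0.42, and of -0.33 without shSC 4. Bub3, which carries the checkpoint kinases to kinetochores, was by far the most abundant. It stood at 168, 110 and 114 CPM in shChi3l1 and at 218, 111, 162 and 118 in shSC, with full overlap and a log2 fold change of -0.22 ± 0.36 (SE). Without Bub3 the 50-gene sum was 684, 516 and 445 CPM in shChi3l1 and 917, 635, 591 and 1087 in shSC. Bub1, a checkpoint kinase at kinetochores, stood at 1.53, 6.95 and 3.54 CPM against 6.28, 9.12, 4.33 and 10.0, with a log2 fold change of -0.89 ± 0.56 (SE). It was lower in each of the 3 pairs, although shChi3l1 2 lay above shSC 1 and shSC 3. Ttk, the MPS1 kinase that starts checkpoint signalling, was rare, at 0.340, 1.04 and 1.30 CPM against 0.284, 1.83, 0.887 and 3.65, and had -0.89 ± 0.88, and -0.17 without shSC 4. Its lowest value was in shSC 1. Mad2l1, the inhibitor of the anaphase-promoting complex, had -0.41 ± 0.61 with 60.5 CPM in shChi3l1 1 and 66.7 in shSC 1. Bub1b, its partner BUBR1, had -0.42 ± 0.58 and -0.03 without shSC 4.

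Spindle motors and microtubule binders were low and uneven. All 8 had negative fold changes over the 7 libraries, with a median of -0.79, but 6 of 8 without shSC 4, with a median of -0.33. Nusap1, which bundles spindle microtubules near chromatin (chr2:119618298-119651244), stood at 2.21, 7.58 and 6.14 CPM in shChi3l1 and at 7.84, 10.6, 10.2 and 19.3 in shSC. No values overlapped, although shChi3l1 2 at 7.58 and shSC 1 at 7.84 CPM nearly met. Nusap1 had a log2 fold change of -1.17 ± 0.52 (SE), 2.25-fold lower. Kif22, a motor that pushes chromosomes away from the poles, stood at 3.79, 8.29 and 4.07 CPM against 11.1, 6.49, 11.2 and 14.3, with a log2 fold change of -1 ± 0.45. Only shSC 2 fell within the shChi3l1 range.

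Kif11, the motor that separates the poles, had -0.80 ± 0.81, and Tpx2, which brings Aurora A to the spindle, -0.78 ± 0.71. Both were -0.16 without shSC 4. Kif2c, a microtubule depolymerase, had -0.77 ± 0.57, and the chromosome motor Kif4 -1.39 ± 0.90, which were -0.51 and -0.71 without shSC 4. Kif15 and Hmmr had -0.46 ± 0.63 and -0.42 ± 0.84 over all libraries and turned to 0.02 and 0.52 without shSC 4. Hmmr, a spindle-pole protein, was higher in the shChi3l1 library in each of the 3 pairs, at log2 ratios of 0.83, 0.04 and 1.08.

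The cytokinesis genes were the least abundant group. They summed to 8.85, 29.1 and 21.2 CPM in shChi3l1 and to 18.9, 34.8, 16.7 and 55.3 in shSC. All 6 had negative fold changes, with a median of -0.61, and 5 of 6 did without shSC 4, with a median of -0.21. Ect2, which activates RhoA at the division plane, stood at 2.34, 4.40 and 4.39 CPM against 6.13, 4.63, 2.93 and 11.4, with a log2 fold change of -0.75 ± 0.53 (SE), and -0.30 without shSC 4. Prc1, the bundler of the central spindle, stood at 2.89, 11.6 and 5.08 CPM against 7.98, 12.1, 5.42 and 16.3, with -0.68 ± 0.57, and -0.38 without shSC 4. In both genes shChi3l1 values lay among the shSC ones. Kif20a, a central spindle motor, had -1.02 ± 1.01, from 0.128 CPM in shChi3l1 1 to 11.4 in shSC 4, without which it was -0.33, and Cdc23 overlaps 29.3% of its exon bases. Kif23, Anln and Kif20b had -0.39 ± 0.68, -0.55 ± 0.74 and -0.44 ± 0.90, and without shSC 4 they were -0.11, -0.10 and 0.39.

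Genes of chromosome structure were split once shSC 4 was left out. All 6 had negative fold changes over the 7 libraries, with a median of -0.43, but 3 of 6 were lower without shSC 4, with a median of -0.05. Mki67, whose protein Ki-67 coats mitotic chromosomes and is the usual marker of dividing cells, stood at 6.04, 8.50 and 4.47 CPM in shChi3l1 and at 2.84, 5.17, 4.13 and 19.0 in shSC. Library shSC 4 had the highest level, shSC 1 and shSC 3 lay below all 3 shChi3l1 libraries, and shSC 2 lay above only shChi3l1 3. The log2 fold change was -0.29 ± 0.66 (SE) with shSC 4 and 0.65 ± 0.46 without it. Mki67 was higher in the shChi3l1 library in each of the 3 pairs, at 1.06, 0.71 and 0.11.

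Top2a, the topoisomerase that untangles sister chromatids, stood at 11.9, 24 and 16.4 CPM in shChi3l1 and at 5.71, 26.2, 9.93 and 39.3 in shSC. The groups overlapped fully, and the log2 fold change went from -0.22 ± 0.63 (SE) to 0.32 without shSC 4. Smc2 and Smc4, the ATPases of condensin, stood at 3.02, 7.78 and 2.85 and at 7.15, 9.18 and 6.91 CPM in shChi3l1. In shSC they stood at 1.88, 10.7, 4.84 and 18.9 and at 3.83, 20.1, 7.78 and 22. Both were lowest in shSC 1 and highest in shSC 4, with -0.99 ± 0.75 and -0.79 ± 0.59, and with -0.35 and -0.45 without shSC 4. The condensin subunits Ncapg and Ncapd2 had -0.53 ± 0.51 and -0.33 ± 0.60, and without shSC 4 they were -0.31 and 0.22.

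The genes of the anaphase switch went in both directions: 2 of 4 were lower, with a median of -0.32, and 3 of 4 without shSC 4, with a median of -0.26. Cdc20, which activates the anaphase-promoting complex, stood at 20.5, 12.8 and 14.9 CPM in shChi3l1 and at 30.1, 16.1, 19.1 and 40.6 in shSC. Ube2c, the ubiquitin carrier of that complex, stood at 34.8, 14.1 and 15.8 against 42.1, 26.6, 28.0 and 82.3. In both genes shChi3l1 1 lay above shSC 2 and shSC 3, and each pair was lower in shChi3l1. Their log2 fold changes were -0.72 ± 0.41 and -1.05 ± 0.52 (SE), and -0.44 and -0.58 without shSC 4, while Tnnc2 overlaps 22.8% of the exon bases of Ube2c.

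Pttg1 and Espl1, which encode securin and the protease separase that securin holds in check, were the 2 genes with positive values. Pttg1 stood at 75.4, 55.4 and 40.9 CPM in shChi3l1 and at 67.7, 50, 64.8 and 34.3 in shSC, its lowest level being in shSC 4. The log2 fold change of 0.08 ± 0.36 (SE) is far within its error, and it was negative under several other settings, such as -0.13 with library totals alone. Espl1 stood at 6.72, 22.2 and 12.6 CPM against 8.44, 13, 7.27 and 12.4, with 0.43 ± 0.46. That difference rested on shChi3l1 2 and was -0.09 without that library.

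**Figure D4:**
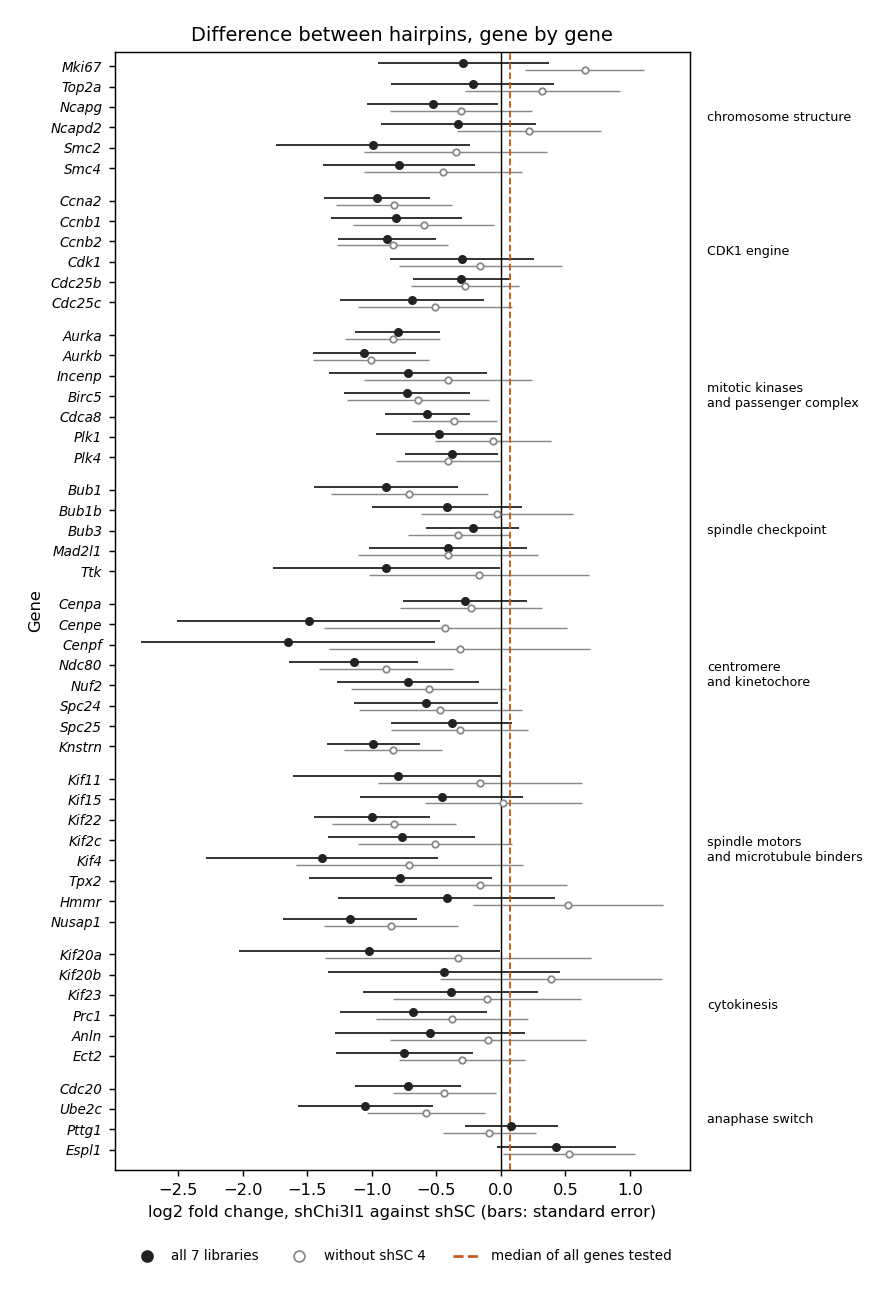
Log2 fold change (shChi3l1 against shSC) of each of the 50 genes with its standard error, over all 7 libraries (filled) and without shSC 4 (open); the dashed line is the median of all genes tested, 0.07. With all libraries 48 points lie below 0, and without shSC 4 the points for Mki67, Top2a, Ncapd2, Kif15, Hmmr and Kif20b lie above it, while Aurka, Aurkb, Ccnb2 and Knstrn barely move.

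Levels can be compared between genes only per length. Per kilobase of exon, the mean level over the 7 libraries was highest for Pttg1 (27.7 CPM per kilobase), Bub3 (20.4), Ccnb2 (15.8), Ube2c (13.4), Cdc20 (11.8), Birc5 (11.4) and Aurka (10.1). It was lowest for Kif20b (0.147) and Cenpf (0.170). All exons of a gene together can be longer than its main transcript, at 7006 against 2218 bases in Bub3 but 1531 in both in Ccnb2. The order therefore depends on the length used. In 17 of the 50 genes some library had 50 reads or fewer, which limits the precision of the motor, cytokinesis and large kinetochore genes most.

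The libraries differed in which of the 50 genes they held, along the length of the transcripts. In the 25 genes with the shorter transcripts (947 to 3236 bases) the median centred log2 level was 0.56 in shSC 1 and 0.83 in shSC 4, and -0.17, -0.38 and -0.57 in shChi3l1 1, 2 and 3. In the 25 with the longer ones (3398 to 11130 bases) it was -0.44 in shSC 1 and 1.29 in shSC 4, and -0.81, 0.42 and -0.32 in shChi3l1. Library shSC 1 was thus highest for 12 of the short genes and lowest for 9 of the long ones, while shSC 4 was highest for 11 short and 21 long genes. The shorter 25 genes had a median log2 fold change of -0.72 and the longer 25 one of -0.53. With offsets for each library's trend with the length of all exons of a gene, 48 of the 50 were lower, with a median of -0.75. That length is not the transcript length that splits the genes here, so the offsets may not remove the pattern above. What lies behind the length pattern was not tested.

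Other division genes, listed by their function with earlier results of these data known, gave the setting. Of 71 further mitosis genes, 66 were lower over the 7 libraries, with a median of -0.54, and 54 of the 70 tested without shSC 4. The smallest unadjusted p among them were those of Sgo1, the protector of centromeric cohesion, at -1.45 ± 0.53, and the kinase Melk, at -1.25 ± 0.52. Of 44 DNA replication genes 39 were lower, with a median of -0.44, and 40 of 44 without shSC 4. Their sum was 1301, 1091 and 1027 CPM in shChi3l1 and 1732, 1333, 1278 and 1390 in shSC. Mcm5 and Mcm7, parts of the replicative helicase, had -0.74 ± 0.31 and -0.69 ± 0.31. The sum of the 50 mitosis genes divided by that of the replication genes was 0.655, 0.574 and 0.544 in shChi3l1 and 0.655, 0.560, 0.589 and 0.867 in shSC, so that only shSC 4 stood out.

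Of 15 genes of G1 cyclins, their kinases and E2F factors, 13 were lower, with a median of -0.31. They summed to 435 to 473 CPM in shChi3l1 and to 508 to 632 in shSC, without overlap. Among them Myc had -1.44 ± 0.70, with 149 CPM in shSC 4, and Ccne1, cyclin E1, -0.52 ± 0.38. The 15 genes of the MuvB, B-MYB and FOXM1 regulators showed no such direction, with 7 lower and a median of 0.03: Lin54, which reads the CHR letters, had 0.47 ± 0.51 and Foxm1 -0.80 ± 0.98. Foxm1 was rare, from 0.273 CPM in shSC 3 to 7.57 in shSC 4. Of 18 subunits and regulators of the anaphase-promoting complex, 9 were lower, with a median of -0.02. Anapc15 had 0.40 ± 0.37, with Tomt overlapping 38.4% of its exon bases, and the inhibitor Fbxo5 had -0.49 ± 0.54.

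The CDK inhibitors and antiproliferative genes went the other way in sum. The 15 genes summed to 3051, 3841 and 3274 CPM in shChi3l1 and to 2884, 2679, 2670 and 2560 in shSC, without overlap. Abundant genes weigh most in such a sum, and Btg1 was the most abundant of the 15. Gene by gene they were mixed, with 7 lower and a median of 0.04. Btg2, which slows entry into S phase, had 0.76 ± 0.43. It stood at 951, 906 and 646 CPM in shChi3l1 and at 762, 250, 572 and 381 in shSC. Cdkn2a, which encodes p16 and ARF, had -1.70 ± 1.29, with 3.44 CPM in shSC 4 and at most 0.724 elsewhere. The sum therefore does not describe the CDK inhibitors in particular. None of these genes passed edgeR's test.

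**Figure D5:**
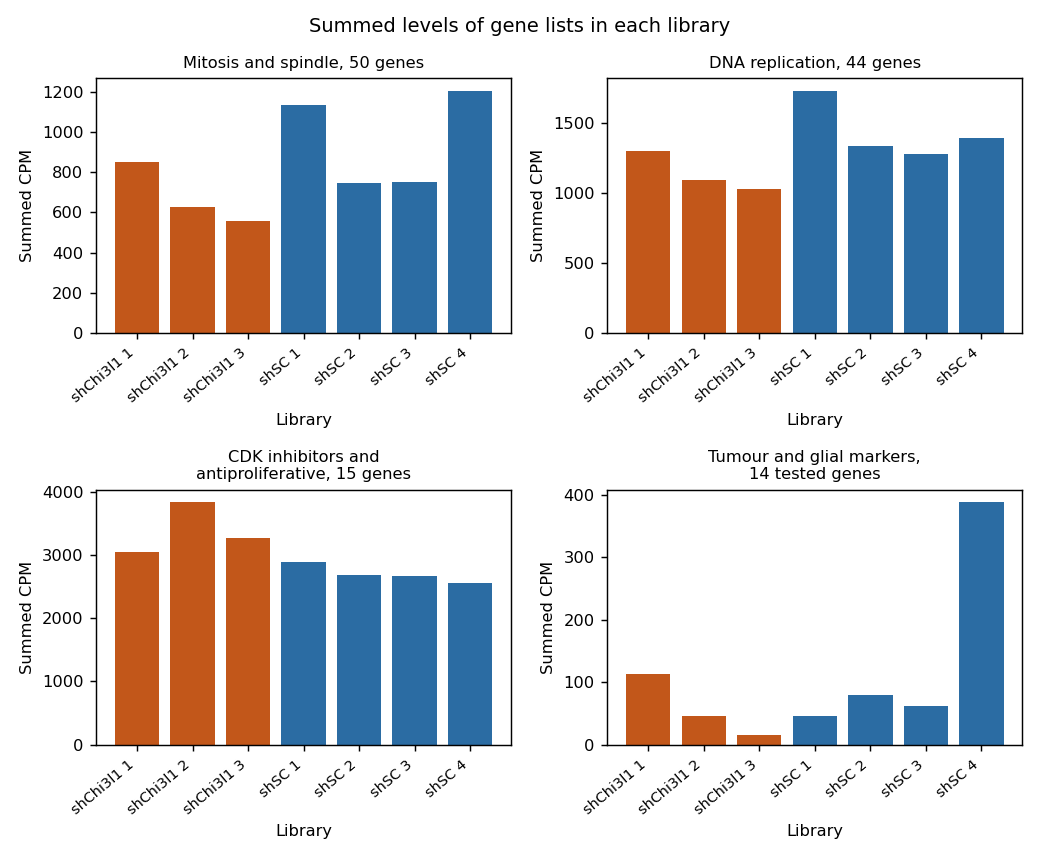
Summed CPM in each library of the 50 mitosis and spindle genes, 44 DNA replication genes, 15 CDK inhibitors and antiproliferative genes, and the 14 tested tumour and glial markers. The mitosis sum is highest in shSC 1 (1135) and shSC 4 (1205), the replication sum in shSC 1 (1732), the inhibitor sum in shChi3l1 2 (3841), and the marker sum in shSC 4 (388).

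Markers of other cells that a macrophage sort can hold varied between libraries. For tumour and glial cells 13 of 14 tested markers were lower in shChi3l1, and Fabp7, the most abundant, stood at 29.8, 2.67 and 0.976 CPM in shChi3l1 and at 24.1, 17.1, 13.1 and 141 in shSC. Without shSC 4, 5 of those 14 were lower. T and NK cell markers summed to 139 to 668 CPM in shChi3l1 and to 123 to 959 in shSC, with the lowest sums in shChi3l1 2 and shSC 4, and Nkg7 was the most abundant. B and plasma cell markers summed to 151 to 3083 in shChi3l1, the highest being in shChi3l1 3, and to 94.5 to 887 in shSC, led by Ighm. Dendritic cell markers summed to 632 to 968 and 235 to 1407, led by Ccr7. All 9 microglia markers were higher in shChi3l1, where 42.4% of all genes were lower. At an unadjusted p under 0.05 in edgeR 4 of them were higher, where 0.906% of all genes were, and none passed the adjusted threshold. Each was highest in shChi3l1 3, while in shChi3l1 1 most lay within or below the shSC range.

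The remaining lists were low. Neutrophil markers (3 of 9 tested, led by S100a8) summed to 3.74 to 70.2 CPM in shChi3l1 and to 3.51 to 27.0 in shSC. Endothelial markers, led by Cldn5, summed to 30.1 to 111 and 30.1 to 82.4. Fibroblast and pericyte markers (4 of 8 tested, led by Acta2) reached 22.8 and 13.6, and erythroid markers (5 of 6 tested, led by Hbb-bs) 32.9 in shChi3l1 and 77.5 in shSC. Their part in the levels of the 50 mitosis genes was not tested.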

How the data were processed

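Each deposited file holds the raw read counts of 1 library for 55385 gene IDs, with exon coordinates and lengths. The submitters' processing notes list Trim Galore, HISAT2 and featureCounts with build mm10, while their versions and the annotation counted on are not given in these sources. Per the labels' protocols, tumours were digested with collagenase IV (37 °C, 15 min), macrophages were sorted, 10 ng of RNA was turned into cDNA with a SMART-Seq kit, and 1 ng of that went into Nextera XT libraries, which do not mark strand. Overlapping genes can thus share reads. Over 10% of the exon bases overlap another gene in 7 members. These are Ccna2, Kif20a, Ube2c, Kif4 (15.1%), Ncapg (13.4%), Cdc25c (12.7%) and Prc1 (11.1%). The same holds for genes outside the members, among them Mcm7 (12.6%) and Anapc15 (38.4%). Rfc2 (15.1%) and Cdk4 (19.7%), the most abundant genes of the replication and G1 lists, are others, so overlap can affect those sums. Gene names come from GENCODE mouse release 21, which matched 55144 IDs without version, and promoter windows from RefSeq.

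Genes passing filterByExpr at a minimum count of 10 were tested over all 7 libraries after TMM scaling, using the robust quasi-likelihood F test of edgeR 4.0.16 in R 4.3.3 with hairpin as the only term, with Benjamini-Hochberg adjustment over 15448 genes and a threshold of 0.05. The biological coefficient of variation was 58.3%. CPM use TMM-scaled totals, 0.1 CPM was added for centred values and pair ratios, and SE values derive from the F statistic. With library totals alone the median of all genes was -0.13, against 0.07 with TMM, and the 50 genes lay 0.81 and 0.78 below it.

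The 50 members, the other gene lists and the marker lists were chosen with earlier results of these data known. Genes given in full are Mki67, Top2a and, in each role, the 2 with the smallest unadjusted p and the one highest per kilobase, others being named for a value beside them. Outside the 50 they are the 2 of smallest p in each pathway list and the most abundant of each marker list of a cell type, except for microglia, whose gene and sum are not reported here. Same-numbered libraries deviated together (correlations across genes of 0.40, 0.35 and 0.20, each over the pairing limit of 0.1), while shChi3l1 3 with shSC 2 (0.38) and shChi3l1 2 with shSC 4 (0.21) did as well. No library repeated another within sampling noise in 21 pairs. Alternatives were other scalings and filters, leaving out libraries, the replicate block, offsets for exon length, DESeq2 1.42.0 and limma 3.58.1. The test was tried on simulated data. Sequences of 8 promoters are printed in part.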

Additional observations from a re-analysis of the deposited data

Results flagged for a closer look

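In the 4 shSC libraries 6 of 66 quantities had 1 library far from the other 3 (a gap above Dixon's critical value), where chance gives about 1 in 20. The quantities were read in the same 4 libraries and are not independent, so the count of 6 is a description only. Library shSC 4 was the high one for Mki67 at 19.0 CPM, Plk1 at 17.6 CPM, Cenpe at 9.16 CPM and the tumour and glial marker sum at 388 CPM. Library shSC 1 was the high one for the sum of the MuvB, B-MYB and FOXM1 genes at 564 CPM and that of the anaphase-promoting complex genes at 1013 CPM.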

How the results depend on the processing

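Over 19 alternatives 0 members passed and 40 to 49 of the 50 were lower in shChi3l1, with medians from -0.33 to -0.94. The smallest adjusted p of any member, from edgeR, DESeq2 or limma, was 0.75, and 38 of the 50 never turned. DESeq2's Wald test called 1 gene. Members without overlap between groups numbered 8 with library totals alone, 8 without shChi3l1 3 and shSC 4 together, and 5 to 15 when single libraries were left out, with 15 lacking shChi3l1 1 and 10 lacking shChi3l1 2. Of all genes 3.85%, 9.37%, 18.7% and 7.32% did not overlap, in either direction, with library totals alone, without both libraries, without shChi3l1 1 and without shChi3l1 2, against 2.49% over all 7 libraries. Members lower at an unadjusted p under 0.05 in edgeR numbered 10, 7 and 1 without shChi3l1 1, 2 and 3. They numbered 5, 7, 7 and 0 without shSC 1, 2, 3 and 4. The share of all genes at that level was not counted in these fits. Log2 fold changes turned as follows, and the cause was not tested. Without shSC 4, which is also the fit of the 6 paired libraries with no replicate block, they were 0.65 for Mki67, 0.32 for Top2a, 0.22 for Ncapd2, 0.02 for Kif15, 0.52 for Hmmr, 0.39 for Kif20b, -0.09 for Pttg1 and 0.01 for Foxm1. With the replicate block they were 0.64 for Mki67, 0.55 for Top2a, 0.03 for Ncapd2, 0.07 for Kif15, 0.68 for Hmmr, 0.59 for Kif20b, 0.02 for Kif23, -0.12 for Pttg1 and 0.81 for Foxm1, and no call changed. With the replicate block and length offsets they were 0.40 for Mki67, 0.32 for Top2a, 0.57 for Hmmr, 0.42 for Kif20b, -0.08 for Pttg1 and 0.69 for Foxm1. With voom they were 0.06 for Mki67, 0.08 for Top2a, 0.14 for Ncapd2, 0.23 for Hmmr, -0.09 for Pttg1 and 0.31 for Foxm1. Without shChi3l1 3 and shSC 4 together they were 0.84 for Mki67, 0.36 for Top2a, 0.12 for Cdk1, 0.12 for Cenpe, 0.22 for Cenpf, 0.23 for Kif15, 0.35 for Hmmr, 0.75 for Kif20b and 0.74 for Cdkn2a. Leaving out single libraries gave ranges of -0.62 to 0.65 for Mki67, -0.57 to 0.32 for Top2a, -0.58 to 0.22 for Ncapd2, -0.79 to 0.02 for Kif15, -0.82 to 0.52 for Hmmr, -0.85 to 0.39 for Kif20b, -0.21 to 0.27 for Pttg1, -0.09 to 0.72 for Espl1 and -1.23 to 0.01 for Foxm1. Pttg1 was -0.13 with library totals alone, -0.005 with no low-count filter and -0.21 without shChi3l1 1, where Ncapd2 was 0.04. Espl1 was -0.09 without shChi3l1 2. The count over pairs has no value where a library of a pair is left out. Low read counts limit Cenpe, Cenpf, Kif20a, Kif20b, Ttk and Kif4 most.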
